A study of Mus musculus with 48 samples.

Results

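B16-D5 melanoma tumors grown in C57BL/6J wild type (WT) mice and collected at day 7 after a control IgG antibody were compared with tumors of untreated WT mice. The comparison rests on 6 of the 48 RNA sequencing libraries of the series, 3 titled WT IgG and 3 titled WT Ctrl, chosen by their titles alone and described across 30837 genes. B16-D5 is a mouse melanoma cell line that forms pigmented tumors in this strain. The mice were obtained at 4 weeks of age, housed for 2 weeks and injected subcutaneously with B16-D5 cells 8 days before treatment began. IgG mice received 250 µg of antibody in 200 µL of PBS on day 0 and again on day 3, and untreated mice received no injection, so the antibody and the act of injection cannot be told apart. The series also holds anti-PD-1 tumors, tumors of iNOS KO mice, which lack inducible nitric oxide synthase (Nos2), and a separate time course in WT mice. The day of harvest was taken from the study's description of the experiment. The treatment and time fields of the labels contradict the titles in 6 of the 6 libraries: those titled Ctrl are entered as IgG at day 1, and those titled IgG as Ctrl at day 3. Each library came from 1 tumor of 1 mouse. The titles also name the columns of the count table, and every direction given here rests on them.

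A control IgG is given in immunotherapy experiments to separate what an antibody does through its target from what any injected antibody does. The constant part of IgG is bound by Fc gamma receptors on macrophages, neutrophils, natural killer cells and B cells, and these receptors either activate or inhibit the cell that carries them. Melanoma cells are descended from melanocytes and make pigment enzymes under the transcription factor Mitf, while T cells, B cells, macrophages, fibroblasts and vessel cells enter the tumor from the host.

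The tumors showed the gene expression of pigmented melanoma in both groups. The melanocyte genes Dct and Tyrp1, both enzymes of melanin synthesis, stood at 4068 to 7027 and 3153 to 5439 CPM (counts per 1e6 of the scaled library total). Library totals were 35710121 to 37816043 counts in the untreated group and 27233047 to 33948155 in the IgG group, without overlap. Counts on 1781 sensory receptor genes, which serve smell and taste and are not known to be transcribed in such tumors, summed to 28, 35 and 19.7 CPM in untreated tumors 1 to 3 and to 61.1, 121 and 246 CPM in IgG tumors 1 to 3. These groups did not overlap either. The level is given beside the lists of low count to which it could add. Skeletal muscle genes were high in untreated tumor 1 and IgG tumor 2, where Ttn, the giant spring protein of muscle, reached 761 and 246 CPM against 14.1 to 49.4 CPM in the other 4 tumors.

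No gene passed the test at a false discovery rate of 5% (0 of 30837 genes, 0%, edgeR quasi-likelihood test, smallest adjusted p = 0.565). At an unadjusted p under 0.05, 1708 genes (5.54%) were higher and 707 (2.29%) were lower in IgG tumors. Among the 14968 genes with a mean of at least 1 CPM over the 6 tumors, 776 (5.18%) were higher and 642 (4.29%) lower at that level, and the median log2 fold change was -0.02. With IgG tumor 3 left out, 0 genes passed, and the share at an unadjusted p under 0.05 was 1.81% for higher and 2.43% for lower genes. The Wald test of DESeq2 on the same 30837 genes called 35 genes (0.114%), 20 higher and 15 lower, and left 4810 without an adjusted p. Of the 20 higher genes 19 had a mean under 1 CPM, whereas 14 of the 15 lower genes were above it, among them Bcas1, Ifi27, Ndufs7, Cdk1, Fen1 and Slc45a2. The edgeR fit with no filter on low counts called 665 of 51257 genes, 591 higher (1.15%) and 74 lower (0.144%), of which 10 were among the calls of DESeq2. That fit also called 9 of 23 skeletal muscle genes lower, with a standard error of 0.25 for Ttn against 1.39 in the filtered fit. The genes below are therefore given as measured values, with the test beside them, and none is called changed.

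**Figure D1:**
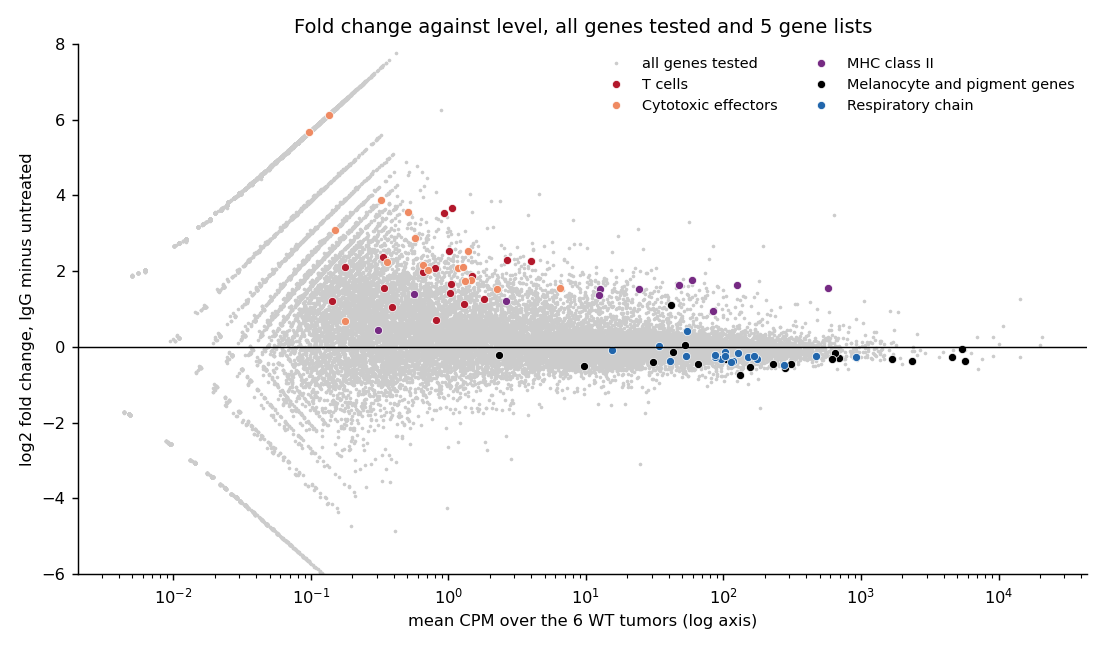
Log2 fold change (IgG minus untreated) against mean CPM over the 6 WT tumors on a log axis, 1 gray point for each gene tested and colored points for the members of 5 gene lists. T cell and cytotoxic genes lie above 0 at mean levels near 1 CPM, MHC class II genes between 0.45 and 1.77, and pigment and respiratory chain genes mostly just below 0. Not drawn are 1438 genes at 0 counts in the 6 tumors and 18 genes beyond the range of -6 to 8.

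Transcripts of T cells were higher in the IgG tumors. Of 18 T cell genes tested, 18 had a log2 fold change above 0, against 58.9% of all genes tested, and the median was 1.93 against 0.14 over all genes. In 12 of the 18 the 3 IgG tumors lay above the 3 untreated tumors, against 6.79% of all genes tested, and 7 of 18 had an unadjusted p under 0.05. The list summed to 5.48, 12.7 and 6.74 CPM in the untreated tumors and to 38.6, 24.5 and 31.9 CPM in the IgG tumors. Every IgG tumor therefore held more T cell transcripts than any untreated tumor. In bulk tumors, more cells of a type and more RNA per cell cannot be told apart. At the rate of counts per kilobase seen on sensory receptor genes, the exons of these 18 genes would have collected 0.613, 1.22 and 2.47 CPM in the 3 IgG tumors, and subtracting that rate from every gene before the fit left a median of 1.91. With IgG tumor 3 left out the median was 1.85, and it ranged from 1.51 to 2.40 with any 1 of the 6 tumors left out. With the sensory receptor level as a covariate the median was 1.37, and 5 of 18 genes were higher at an unadjusted p under 0.05.

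Cd3e, a chain of the T cell receptor complex (chromosome 9, 44998740 to 45009627, mm10), was at 0.684, 2.14 and 1.33 CPM in untreated tumors and at 11.6, 6.07 and 2.18 CPM in IgG tumors. The lowest IgG tumor was barely above the highest untreated one. Its log2 fold change was 2.26 ± 0.67 (SE, n = 3 per group; edgeR, adjusted p = 0.565). Cd8a, the coreceptor chain of cytotoxic T cells, had 0, 4 and 11 counts in untreated tumors and 99, 46 and 17 counts in IgG tumors. Cd8b1, its partner chain, had 0, 10 and 6 counts against 97, 43 and 43. Both CD8 chains were thus nearly absent from untreated tumors and separate between the groups. Cd2, an adhesion receptor of T and natural killer cells, was at 0.0263, 2.02 and 0.636 CPM against 2.99, 3.07 and 7.14 CPM. The log2 fold changes were 3.55 ± 1.03 for Cd8a, 3.67 ± 1.49 for Cd8b1 and 2.29 ± 0.92 for Cd2, with adjusted p-values of 0.565 in the edgeR test.

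Genes of cytotoxic effector cells were also higher in the IgG tumors, with IgG tumor 3 the highest, whereas the T cell list was highest in IgG tumor 1. Of 17 tested, 17 had a log2 fold change above 0 (58.9% of all genes tested) with a median of 2.18, 8 were separate between the groups with IgG higher (6.79%), and 7 had an unadjusted p under 0.05 and were higher (5.54%). The summed level was 5.13, 11.4 and 7.60 CPM in untreated tumors and 30.04, 14.6 and 45.1 CPM in IgG tumors, against 0.366 to 1.48 CPM at the sensory receptor rate. Without IgG tumor 3 the median was 1.57. Ccl5, a chemokine made by activated T and natural killer cells, was at 2.42, 4.56 and 2.80 CPM in untreated and at 13.1, 6.60 and 9.21 CPM in IgG tumors. Its log2 fold change was 1.56 ± 0.47 (edgeR, adjusted p = 0.565). Klrk1, which encodes the activating receptor NKG2D, was at 0.448, 0.655 and 0.116 CPM against 1.39, 1.09 and 4.62 CPM. Gzma, a granzyme of killer cells, overlapped between the groups, with 0.448, 1.34 and 1.71 CPM against 3.11, 0.660 and 6.29 CPM. Ifng, the cytokine interferon-gamma, had 0 counts in the 3 untreated tumors and 3, 6 and 14 counts in the IgG tumors. A count of 0 allowed up to 0.0790 to 0.0867 CPM in the untreated libraries, which covers counting error only. Ifnb1, the type I interferon IFN-beta, had 0 counts in 5 of the 6 tumors and 5 counts in IgG tumor 1, and was not tested.

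**Figure D2:**
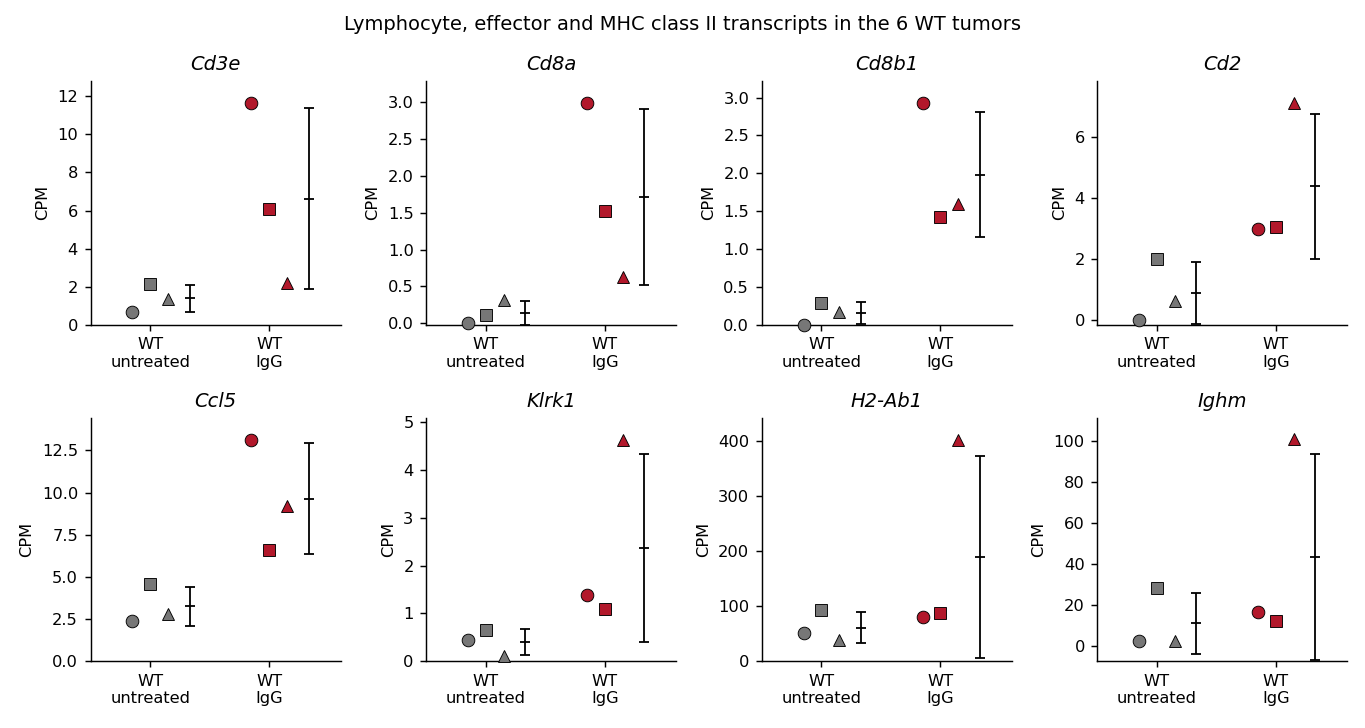
CPM of 8 transcripts in the 3 untreated (gray) and 3 IgG (red) WT tumors, with circle, square and triangle for replicates 1, 2 and 3 and the mean ± SD to the right of each group. Cd3e, Cd8a, Cd8b1, Cd2, Ccl5 and Klrk1 are separate between the groups, while H2-Ab1 and Ighm overlap and reach 401 and 101 CPM in IgG replicate 3.

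B cell transcripts were few, and their difference leaned on fewer genes. Of 12 tested, 11 had a log2 fold change above 0 (58.9% of all genes tested). The median was 1.94, and 1.94 again with the 2 genes at 0 in a whole group placed at their lower bound. Of the 12, 4 were separate with IgG higher (6.79%) and 3 were higher at an unadjusted p under 0.05 (5.54%). Without IgG tumor 3 the median was 1.14 and 1 gene had such a p. Ighm, the heavy chain of IgM, gave 2.79, 28.3 and 2.75 CPM in untreated and 17, 12.1 and 101 CPM in IgG tumors, so the groups overlapped. Cr2, the complement receptor of mature B cells, had 0, 2 and 0 counts against 11, 38 and 8. Cd79a, a chain of the B cell receptor, went the other way and overlapped, with 7.40, 4.87 and 8.27 CPM against 7.42, 5.18 and 5.21 CPM. Restricting the fit to the 6 libraries left 8 of the 12 genes and a median of 1.18, and with the sensory receptor level as a covariate the median was 0.99.

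For the receptors of IgG itself the groups did not separate. Of 7 genes of the Fc gamma receptor list, 6 had a log2 fold change above 0 (58.9% of all genes tested, 47.3% of those with a mean of at least 1 CPM). The median was 0.69, 0 of the 7 were separate and 0 had an unadjusted p under 0.05. Fcgr1, the high-affinity activating receptor, was at 4.24, 12.3 and 7.40 CPM in untreated and at 7.39, 11.3 and 23.2 CPM in IgG tumors. Fcgr2b, the inhibitory receptor, was at 37.2, 55 and 41.7 CPM against 32.4, 44.6 and 124 CPM. Fcgr3, a second activating receptor, was at 12.5, 32.7 and 22.8 CPM against 19.3, 36.5 and 76.4 CPM. In each of them IgG tumor 3 was the highest tumor, while IgG tumors 1 and 2 lay within the untreated range, below it for Fcgr2b or just above it for Fcgr3. Fcgr4, which binds mouse IgG2 subclasses, had a log2 fold change of -0.03 ± 0.38, and Fcer1g, the signaling chain that the activating receptors share, of 0.97 ± 0.48. Fcgrt, which encodes the receptor that recycles IgG and protects it from breakdown, was at 34.6, 59.8 and 42.5 CPM against 40.9, 46 and 134 CPM. Without IgG tumor 3 the median of the list was -0.03. For Fcgr2b and Fcgrt the log2 fold change then turned to -0.25 and -0.10.

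Antigen presentation through MHC class II was higher in IgG tumor 3 above the rest. Of 11 class II genes, 11 had a log2 fold change above 0 (58.9% of all genes tested), with a median of 1.53. At an unadjusted p under 0.05, 8 were higher (5.54%), but 1 was separate with IgG higher (6.79%). Cd74, the invariant chain that escorts class II molecules, was at 266, 439 and 181 CPM in untreated and at 402, 521 and 1660 CPM in IgG tumors. H2-Ab1, a class II beta chain, was at 51.4, 93.8 and 38.9 CPM against 79.8, 88.2 and 401 CPM. Ciita, the transactivator of class II genes, was at 7.74, 8.23 and 3.50 CPM against 7.90, 9.24 and 39.6 CPM. In all of these IgG tumor 3 was far above the other 5 tumors, and IgG tumors 1 and 2 lay within the untreated range or a little above it. H2-DMa, which loads peptides onto class II molecules, was the separate gene, with 9.66, 16.3 and 11.6 CPM against 21.5, 28 and 59 CPM and a log2 fold change of 1.53 ± 0.42 (edgeR, adjusted p = 0.565). Without IgG tumor 3 the median was 0.42 and 1 of 11 genes was higher at an unadjusted p under 0.05 (1.81% of all genes).

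The upstream sequences of 2 class II genes, H2-Aa and H2-Eb1, are shown because their windows hold the letters of the Y box of class II promoters. H2-Aa was picked after its values were seen. Each window runs from 250 bases before to 50 bases after the RefSeq start on GRCm38.p6, and capitals mark the match to CTGATTGG on either strand. H2-Aa lies at chr17:34287774-34288073 on the minus strand and H2-Eb1 at chr17:34305617-34305916 on the plus strand.
H2-Aa: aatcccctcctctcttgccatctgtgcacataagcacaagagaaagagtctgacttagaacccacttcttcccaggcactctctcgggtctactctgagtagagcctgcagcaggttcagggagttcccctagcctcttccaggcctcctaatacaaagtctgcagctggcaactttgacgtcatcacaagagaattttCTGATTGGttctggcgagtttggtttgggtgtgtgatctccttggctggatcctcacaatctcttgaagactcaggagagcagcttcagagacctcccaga
H2-Eb1: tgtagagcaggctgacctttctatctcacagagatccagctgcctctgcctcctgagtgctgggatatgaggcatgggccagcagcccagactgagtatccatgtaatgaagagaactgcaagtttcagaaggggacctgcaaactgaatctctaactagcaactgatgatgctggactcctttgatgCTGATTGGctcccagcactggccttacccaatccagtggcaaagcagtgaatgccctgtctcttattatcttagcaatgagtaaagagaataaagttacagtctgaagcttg
Counted from the start, the match began at position -51 in H2-Aa and -62 in H2-Eb1. Of 8 class II list genes with a window in the table, 3 held CTGATTGG (H2-Aa, H2-Eb1 and H2-Oa), against 4.10% of 32851 windows of the same length. H2-Aa was at 21.1, 30.7 and 17.6 CPM in untreated and at 33.1, 28.9 and 152 CPM in IgG tumors, and H2-Eb1 at 21.9, 41.4 and 17.3 CPM against 30.5, 33.7 and 211 CPM. Both were thus highest in IgG tumor 3. A match of letters is a description and was not tested as a site.

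IgG tumor 3 was also highest in many other lists, though not in all host cell lists: pericyte and smooth muscle genes were highest in IgG tumor 2, skeletal muscle genes in untreated tumor 1 and erythrocyte genes in untreated tumor 2. Over all 49 lists, IgG tumor 3 was the highest of the 6 tumors in 31 and the lowest in 6. Untreated tumor 1 was the lowest of the 6 in many lists, among them complement, T cell, B cell, macrophage, pan-leukocyte and fibroblast genes. Across all genes, 591 were higher at an unadjusted p under 0.05 without untreated tumor 1 and 558 without IgG tumor 3, against 1708. The list medians below leave out IgG tumor 3 only. For the complement list (18 genes) the median was 1.32, and 0.25 without IgG tumor 3. C3, the central complement protein, was at 16.1, 112 and 29.3 CPM in untreated and at 111, 102 and 784 CPM in IgG tumors. The separate members were Cr2, which the B cell list also holds, with IgG higher, and 2 with IgG lower. Those were C2, a protease of the classical pathway, at 64.2, 62.2 and 71.4 CPM against 40.6, 36.4 and 43.8 CPM, and Cd59a, an inhibitor of the membrane attack complex, at 10.4, 5.70 and 8.21 CPM against 5.64, 5.11 and 3.73 CPM. The fibroblast and collagen list had a median of 0.92, and of 0.55 without IgG tumor 3. Of the 23 genes in that list, 22 were above 0 (58.9% of all genes tested, 47.3% of those with a mean of at least 1 CPM). Col1a1, the main collagen of connective tissue, was at 483, 2154 and 1221 CPM against 1628, 2218 and 3445 CPM. Untreated tumor 1 was the lowest in both genes. Pan-leukocyte genes (12 tested) had a median of 1.14 and of 0.47 without IgG tumor 3, macrophage genes (18) of 0.79 and 0.22, dendritic cell genes (13) of 0.95 and 0.21, and adipocyte genes (16) of 1.64 and 0.08. Mast cell and eosinophil genes (10) had a median of 2.23 and of 0.53 without IgG tumor 3. Of these, 4 were separate with IgG higher (6.79% of all genes tested). They included the tryptase Tpsb2, at 0.763, 1.14 and 0.202 CPM against 2.47, 3.89 and 6.62 CPM. Endothelial genes (19) had a median of 0.22, and of 0.11 without IgG tumor 3, with 15 above 0 and 2 separate with IgG higher, near the 6.88% of genes with a mean of at least 1 CPM. Xist, transcribed from the inactive X chromosome of female cells, was at 158, 302 and 182 CPM against 274, 398 and 729 CPM, while 4 Y-linked genes had 0 or 1 counts in each tumor.

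**Figure D3:**
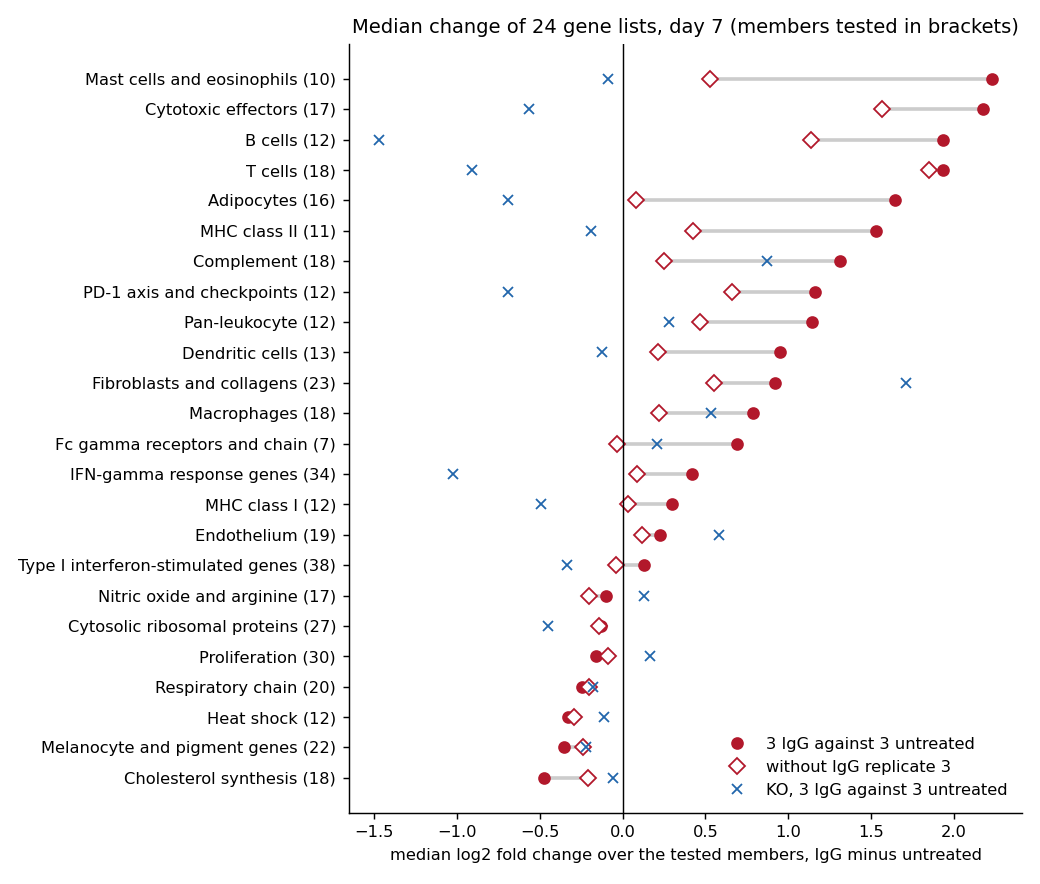
Median log2 fold change (IgG minus untreated) over the tested members of 24 gene lists, with the number of members in brackets. Filled circles use the 3 IgG and 3 untreated WT tumors, open diamonds leave out IgG replicate 3, and crosses show the iNOS KO tumors. The T cell median is 1.93 with and 1.85 without that replicate, whereas the adipocyte median is 1.64 with and 0.08 without it.

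Interferon-responsive genes leaned higher in the IgG tumors for the IFN-gamma and MHC class I lists, by amounts that were small without IgG tumor 3, and were mixed for the type I list. Of 38 type I interferon-stimulated genes, 24 had a log2 fold change above 0, with a median of 0.13. The share above 0 was 58.9% of all genes tested and 47.3% of those with a mean of at least 1 CPM, which all 38 had. At an unadjusted p under 0.05, 4 were higher (5.54%), and 2 were separate with IgG higher (6.79%). The 2 of 38 that were separate are a share near that of all genes. Mx1, an antiviral GTPase, was at 4, 10.1 and 4.39 CPM in untreated and at 10.01, 18.5 and 20.2 CPM in IgG tumors, with a log2 fold change of 1.40 ± 0.38 (edgeR, adjusted p = 0.565). Its groups met at 10 CPM. Of 34 IFN-gamma response genes, 26 were above 0 (58.9% of all genes tested, 47.3% of those with a mean of at least 1 CPM), with a median of 0.42. At an unadjusted p under 0.05, 6 were higher (5.54%). Without IgG tumor 3 the median was 0.087 and 0 genes had such a p. The guanylate-binding protein gene Gbp4 was at 1.34, 3.08 and 1.76 CPM against 5.13, 2.11 and 14.5 CPM. Of the transcription factors of these pathways, Irf1 was at 19.5, 27.7 and 23.2 CPM against 24.5, 21.1 and 37.8 CPM and Irf7 at 11.8, 35.5 and 22.1 CPM against 24.3, 34.9 and 72.4 CPM. Both overlapped. Irf3 was separate by a narrow margin, at 28.2, 34.3 and 35.8 CPM against 37.9, 41.4 and 37.2 CPM (log2 fold change 0.25 ± 0.16). Of 12 MHC class I genes, 11 were above 0 (58.9% of all genes tested, 47.3% of those with a mean of at least 1 CPM). The median was 0.30, and 0.035 without IgG tumor 3. H2-D1, a classical class I heavy chain, was at 212, 283 and 239 CPM against 275, 253 and 463 CPM.

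The checkpoint genes that anti-PD-1 therapy concerns were mixed. Of 12 genes, 10 had a log2 fold change above 0 (58.9% of all genes tested) and 3 were separate with IgG higher (6.79%). The median was 1.16, and 0.66 without IgG tumor 3. Cd274, which encodes the ligand PD-L1, was at 13.9, 18.1 and 23.2 CPM in untreated and at 16.3, 14.4 and 22.4 CPM in IgG tumors (log2 fold change -0.06 ± 0.27). Pdcd1, which encodes PD-1, had 0, 12 and 1 counts against 0, 0 and 24 counts, too few to compare. Cd80, a ligand of CD28 and CTLA-4, was separate at 1.40, 2.22 and 2.05 CPM against 3.53, 3.83 and 5.21 CPM. Vsir, which encodes the checkpoint VISTA, was at 7.37, 26.2 and 14.5 CPM against 22.7, 33.8 and 88.3 CPM. Nos2, the source of inducible nitric oxide, was at 1.40, 3.28 and 3.56 CPM against 1.45, 3.43 and 2.81 CPM, with a log2 fold change of -0.10 ± 0.58. Arg1, which consumes the arginine that nitric oxide synthase uses, was at 7.34, 11 and 16.7 CPM against 3.95, 7.32 and 5.25 CPM. Its log2 fold change was -1.08 ± 0.51. The groups were separate by a narrow margin, with the highest IgG tumor at 7.32 and the lowest untreated tumor at 7.34 CPM.

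Pigment genes of the melanoma cells were lower in the IgG tumors by small amounts. Of 22 genes, 20 had a log2 fold change below 0, against 36.4% of all genes tested and 52.7% of those with a mean of at least 1 CPM. Their median was -0.35, 9 were separate with IgG lower and 5 had an unadjusted p under 0.05. Among all genes with a mean of at least 1 CPM, 11.2% were separate with IgG lower, and 6.05% among all genes tested. Slc45a2, a transporter of the melanosome, was at 169, 136 and 189 CPM in untreated and at 114, 87.7 and 94.9 CPM in IgG tumors (log2 fold change -0.74 ± 0.19, edgeR, adjusted p = 0.565). Dct was at 6030, 7027 and 6437 CPM against 5200, 5751 and 4068 CPM. Each IgG tumor was below each untreated tumor in both genes. The exceptions were Mc1r, the receptor of melanocyte-stimulating hormone, at 50.8, 43.3 and 59.8 CPM against 58.9, 55.3 and 45.3 CPM, and Ednrb, the endothelin receptor of the melanocyte lineage, at 16.3, 40.2 and 21.8 CPM against 30.8, 55.3 and 83.7 CPM. Without IgG tumor 3 the median was -0.24 and 4 genes had an unadjusted p under 0.05.

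The upstream windows of 4 pigment genes are shown because they hold TCATGTG, the core of the M-box through which Mitf acts on pigment genes. Tyr, Trpm1 and Slc24a5, and Tyrp1 and Mc1r elsewhere, were picked after their values were seen. The windows were defined as above on GRCm38.p6, and capitals mark the match on either strand. They lie at chr7:87493463-87493762 (minus strand) for Tyr, chr14:118052197-118052496 (minus strand) for Dct, chr2:125067877-125068176 (plus strand) for Slc24a5 and chr7:64153585-64153884 (plus strand) for Trpm1.
Tyr: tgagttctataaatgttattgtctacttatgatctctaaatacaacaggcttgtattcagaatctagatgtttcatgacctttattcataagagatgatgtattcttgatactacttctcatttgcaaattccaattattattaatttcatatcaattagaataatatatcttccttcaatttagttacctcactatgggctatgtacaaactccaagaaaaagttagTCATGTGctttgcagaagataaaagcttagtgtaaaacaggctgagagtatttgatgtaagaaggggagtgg
Dct: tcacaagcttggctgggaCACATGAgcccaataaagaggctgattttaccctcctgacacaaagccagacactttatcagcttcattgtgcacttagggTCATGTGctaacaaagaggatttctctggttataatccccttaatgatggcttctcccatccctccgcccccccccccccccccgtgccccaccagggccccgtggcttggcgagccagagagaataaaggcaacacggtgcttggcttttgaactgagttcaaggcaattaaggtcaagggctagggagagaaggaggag
Slc24a5: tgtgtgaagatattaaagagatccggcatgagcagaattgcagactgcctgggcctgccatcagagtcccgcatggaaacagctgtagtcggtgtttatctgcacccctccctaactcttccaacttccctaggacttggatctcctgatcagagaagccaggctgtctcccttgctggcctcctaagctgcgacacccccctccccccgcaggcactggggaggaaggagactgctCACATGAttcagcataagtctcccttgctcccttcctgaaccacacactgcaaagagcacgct
Trpm1: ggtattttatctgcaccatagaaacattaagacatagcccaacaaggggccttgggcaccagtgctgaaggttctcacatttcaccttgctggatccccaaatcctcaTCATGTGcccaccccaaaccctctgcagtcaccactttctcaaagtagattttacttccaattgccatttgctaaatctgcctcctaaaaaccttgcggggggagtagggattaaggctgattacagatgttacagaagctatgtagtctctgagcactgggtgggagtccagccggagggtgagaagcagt
Dct held 2 matches and the others 1. Of 15 pigment list genes with a window in the table, 6 held TCATGTG (these 4, Tyrp1 and Mc1r), against 3.77% of 32851 windows. TCATGTG includes the shorter E-box form CATGTG, which was not counted separately. Tyr, the tyrosinase that starts melanin synthesis, was at 324, 298 and 446 CPM in untreated and at 286, 258 and 232 CPM in IgG tumors (log2 fold change -0.46 ± 0.20). Trpm1, a channel of the melanocyte lineage, was at 269, 329 and 408 CPM against 258, 233 and 189 CPM (-0.57 ± 0.20), and Slc24a5, an ion exchanger of the melanosome, at 251, 264 and 282 CPM against 203, 206 and 172 CPM (-0.46 ± 0.17). The 4 printed genes were separate between the groups with IgG lower, whereas Tyrp1 overlapped at 4879, 4847 and 5439 CPM against 4423, 4988 and 3153 CPM. No match was tested as a binding site.

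**Figure D4:**
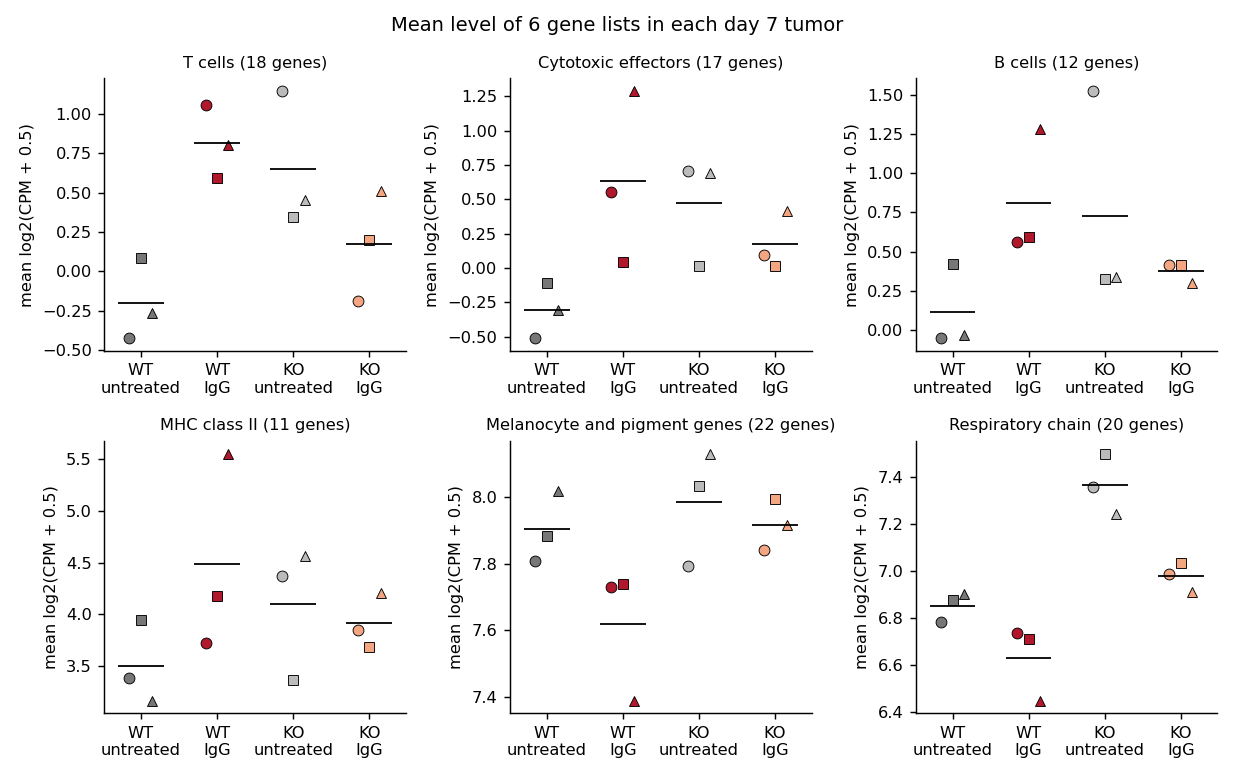
Mean log2(CPM + 0.5) over the members of 6 gene lists in each day 7 tumor of the WT and iNOS KO mice, with circle, square and triangle for the replicates of a group in order and a line for the group mean. In WT, the IgG tumors lie above the untreated tumors for T cell, cytotoxic and B cell genes and below them for pigment and respiratory chain genes, and the groups overlap for MHC class II genes.

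The listed nuclear genes of the respiratory chain had slightly lower values in IgG tumors, and none of them had an unadjusted p under 0.05 in the 18-library fit. With only the 6 WT libraries in the fit 5 of the 20 were lower at that level (856 genes in all). With the sensory receptor level as a covariate 4 were (1665 genes in all). Of 20 nuclear genes of the respiratory chain, 18 had a log2 fold change below 0 (median -0.24), 9 were separate with IgG lower, against 11.2% of genes with a mean of at least 1 CPM, and 0 had an unadjusted p under 0.05. Cox4i1, a subunit of cytochrome c oxidase, was at 119, 128 and 140 CPM in untreated and at 99, 92.6 and 101 CPM in IgG tumors (log2 fold change -0.40 ± 0.20). Ndufa1, a subunit of complex I, was an exception at 27.7, 60.3 and 51.3 CPM against 57.5, 79.4 and 49.5 CPM. Families grouped by symbol, a grouping made after the values were seen, overlap in part with that list. Among genes with a mean of at least 1 CPM, of which 11.2% were separate and lower, 20 of 47 Nduf genes of complex I (42.6%), 7 of 17 Atp5 genes of the ATP synthase (41.2%) and 25 of 77 Mrpl and Mrps genes of the mitochondrial ribosome (32.5%) were separate with IgG lower, and 0 of them with IgG higher. The medians of the 3 families were -0.33, -0.27 and -0.23, and without IgG tumor 3 they were -0.23, -0.30 and -0.21. At an unadjusted p under 0.05, 13, 5 and 15 of their genes were lower. The share was 4.29% among genes with a mean of at least 1 CPM. Ribosomal protein genes of the cytosol (94) had a median of -0.11, with 16 separate and lower. The share separate and lower was 22.7% of 22 Cox genes of cytochrome c oxidase and 25% of 8 Uqcr genes of complex III. It was 20.8% of 24 Timm and Tomm genes of mitochondrial import. Families outside the mitochondrion also exceeded 11.2%. These were 33.3% of 21 Atp6 proton pump genes, 23.7% of 38 proteasome genes and 19.2% of 52 Eif translation initiation genes. Zinc finger (Zfp) genes, at 8.51% of 329, and Slc transporter genes, at 10.4% of 222, did not. By comparison 0 of 37 collagen genes were separate and lower, and 7 were separate and higher.

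Proliferation genes had a median of -0.16, and of -0.089 without IgG tumor 3. Of 30, 29 were below 0, against 52.7% of genes with a mean of at least 1 CPM. The 4 of 30 that were separate and lower are a share near the 11.2% of genes with a mean of at least 1 CPM, and 4 had an unadjusted p under 0.05. Cdk1, the kinase that drives entry into mitosis, was at 63.3, 60.002 and 61.1 CPM in untreated and at 43.9, 38.3 and 43.6 CPM in IgG tumors, a log2 fold change of -0.55 ± 0.13 (edgeR, adjusted p = 0.565). Mki67, the proliferation marker, overlapped at 1766, 1565 and 1590 CPM against 1710, 1832 and 1074 CPM. All 18 genes of cholesterol synthesis had a log2 fold change below 0 (median -0.48), and without IgG tumor 3 the median was -0.21. At an unadjusted p under 0.05, 9 were lower, against 4.29% of genes with a mean of at least 1 CPM. Fdft1, which makes squalene, was separate at 93.3, 68.8 and 89.6 CPM against 66.6, 50.7 and 22.2 CPM. Of 12 heat shock genes, 11 were below 0 (median -0.33) and 4 were separate and lower, against 11.2% of genes with a mean of at least 1 CPM. The chaperone gene Hspa8 was at 2168, 1768 and 1646 CPM against 1576, 1544 and 1186 CPM.

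The genes with the smallest p-values included several that no list held. Named were the 15 genes of each direction with the smallest p among those with a mean of at least 1 CPM and no overlap, with unadjusted p-values of 2.04e-05 to 0.000706 for the lower genes and 0.00036 to 0.00143 for the higher genes, and adjusted p-values of 0.565 in the edgeR test. Bcas1, a gene of myelinating cells, was at 44.7, 48.5 and 34.4 CPM in untreated and at 24.7, 15.6 and 20.2 CPM in IgG tumors. Its log2 fold change was -1.08 ± 0.19 in edgeR and its adjusted p in DESeq2 was 0.000108. Ifi27, named for its induction by interferon, was at 161, 173 and 158 CPM against 83.4, 85.7 and 95.1 CPM (log2 fold change -0.90 ± 0.20, adjusted p in DESeq2 0.00346). The groups were separate in both genes, by a wide gap in Ifi27 and by a gap of about the spread within the IgG group in Bcas1.

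Ndufc1, a subunit of complex I, was at 40.7, 40.5 and 44.7 CPM against 27.4, 21.4 and 20.4 CPM, and Ndufs7, another subunit, at 112, 111 and 102 CPM against 66.8, 66.4 and 74.4 CPM. Timm10, a chaperone of mitochondrial protein import, was at 26.9, 26.4 and 26.5 CPM against 12.8, 10.9 and 17 CPM. Fen1, the nuclease that trims Okazaki fragments, was at 37.8, 33.7 and 33.8 CPM against 23, 21.9 and 21.3 CPM. Pole4, a subunit of DNA polymerase epsilon, was at 40.2, 41.8 and 39.6 CPM against 23.9, 25.2 and 25 CPM. The log2 fold changes of these 5 genes lay between -0.97 and -0.65. Crmp1, Dkk3, Zdhhc2 and Acat2, which acts in the early steps of sterol synthesis, were lower by -0.91, -0.69, -0.76 and -0.91 on the log2 scale. The other 3 lower genes were 0610009B22Rik, Gm12350 and Gm11273.

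**Figure D5:**
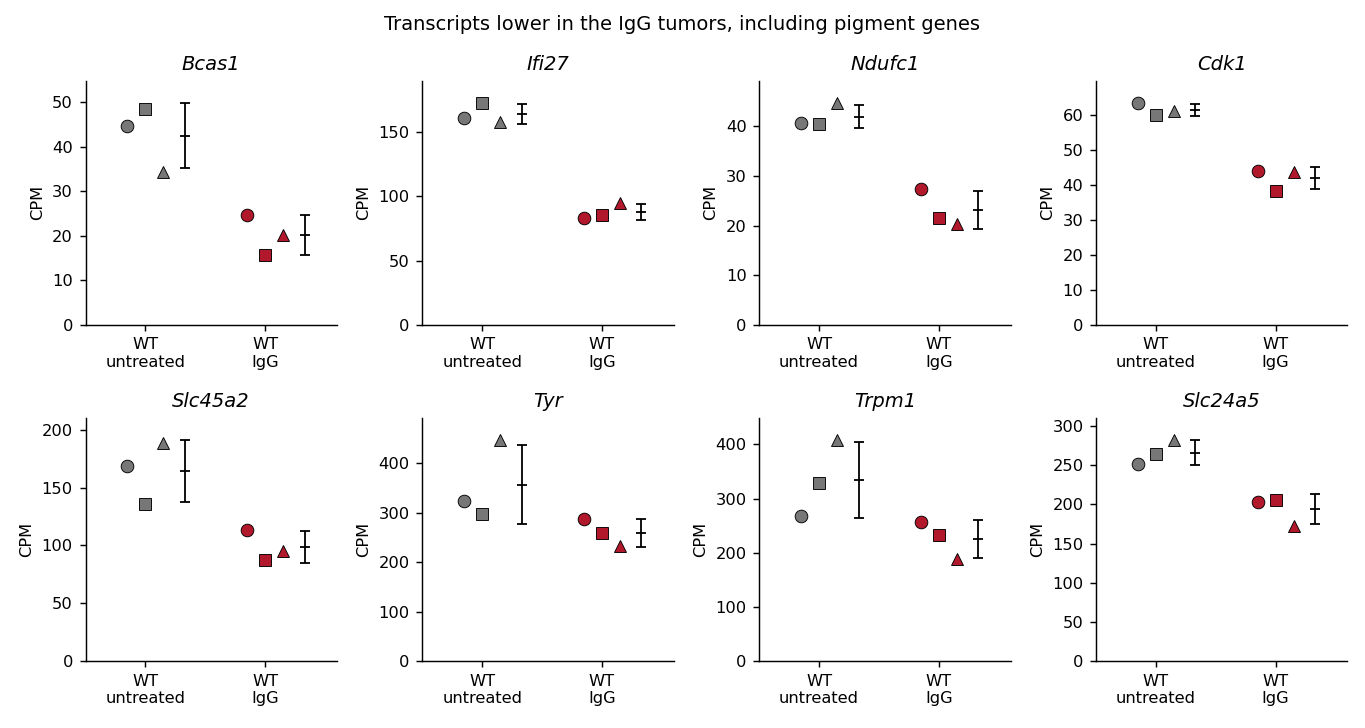
CPM of 8 transcripts in the 3 untreated (gray) and 3 IgG (red) WT tumors, with circle, square and triangle for replicates 1, 2 and 3 and the mean ± SD to the right of each group. The groups are separate in all 8, from Bcas1 (34.4 to 48.5 against 15.6 to 24.7 CPM) to Slc24a5 (251 to 282 against 172 to 206 CPM).

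Of the higher genes, Spon1, a secreted matrix protein, was at 5.11, 8.43 and 4.63 CPM in untreated and at 12.8, 18.6 and 31.5 CPM in IgG tumors (log2 fold change 1.79 ± 0.42). Ngfr, the low-affinity neurotrophin receptor of nerve and neural crest cells, was at 2.58, 2.56 and 1.71 CPM against 10.04, 20.2 and 4.29 CPM (2.33 ± 0.58), and here IgG tumor 2 was the highest. Ntrk2, the receptor of brain-derived neurotrophic factor, was at 1.87, 5.76 and 1.07 CPM against 6.33, 6.83 and 39.6 CPM. Clec14a, a lectin of endothelial cells, was at 1.79, 3.08 and 1.45 CPM against 5.79, 6.30 and 11.8 CPM, and the prostaglandin transporter gene Slco2a1 at 7.27, 13.6 and 7.14 CPM against 18.5, 27.7 and 51.4 CPM. Ptpn22, a phosphatase of lymphocyte signaling, was at 1.87, 5.76 and 2.75 CPM against 9.80, 7.82 and 20.4 CPM. The remaining 9 were Rcsd1, Osr2, Camk1d, Gm15987, Kcnk6, Adh1, Cyp7b1, Chst11 and Gsap. Without IgG tumor 3 the log2 fold change was 1.34 for Spon1, 2.69 for Ngfr, 1.49 for Clec14a and 1.16 for Ntrk2.

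Across all genes the separate genes differed by direction. Among the 14968 genes with a mean of at least 1 CPM, 1030 (6.88%) were separate with IgG higher and 1678 (11.2%) with IgG lower. The higher ones had a median log2 fold change of 0.69 and a median level of 7.18 CPM, and 345 of them differed at least 2-fold between means (2.3%). The lower ones had a median of -0.35 and a median level of 36.3 CPM, and 60 of them differed at least 2-fold (0.401%). Their median exonic lengths were 4457 and 3924.5 bases, against 4170 bases for all 14968. Over all 30837 genes, 1357 (4.4%) were separate and at least 2-fold higher and 216 (0.7%) at least 2-fold lower. Among the higher genes were the predicted genes Gm10800, at 87.4, 175 and 51.2 CPM against 349, 960 and 2205 CPM, and Gm21738, at 7.58, 17.3 and 6.10 CPM against 33.3, 82.2 and 189 CPM. They ranked the 3 IgG tumors in the order of the sensory receptor counts. Their part in other differences was not tested beyond the subtraction and the covariate given here.

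In iNOS KO mice the same treatment gave other values. The genotype field of the labels reads WT for these 6 libraries. Nos2 itself was at 4.21, 2.41 and 4.98 CPM in untreated and at 2.47, 5.92 and 5.83 CPM in IgG tumors of the mice titled KO. The injected B16-D5 cells did not come from the KO mice, so a total count over the whole tumor cannot show or refute the deletion. Of 30837 genes 58 passed the test (0.188%, edgeR), all of them lower in IgG tumors, and the share at an unadjusted p under 0.05 was 2.95% for higher and 12.7% for lower genes. Among genes with a mean of at least 1 CPM in the WT tumors these shares were 5.97% and 7.28%. The excess of lower genes at an unadjusted p under 0.05 thus lay mostly under that level, whereas all 58 genes that passed the test were at or above it. The difference between the 2 genotypes in the IgG effect was called for 0 genes (0%, smallest adjusted p = 0.217), with 5482 (17.8%) at an unadjusted p under 0.05 and higher in WT and 489 (1.59%) lower in WT. Among genes with a mean of at least 1 CPM, 635 (4.24%) were higher and 466 (3.11%) lower in WT, and the median difference was -0.07 against 0.65 over all genes. DESeq2 called 241 genes for this difference. Sensory receptor counts differed here too: they summed to 973 CPM in untreated KO tumor 1, more than in any of the 6 WT tumors.

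The T cell list had a median log2 fold change of -0.91 in KO against 1.93 in WT. At an unadjusted p under 0.05, 8 of its 18 genes were higher in WT for the difference (17.8% of all genes). The list summed to 35.8, 16 and 19.3 CPM in untreated and to 8.55, 14.9 and 21.9 CPM in IgG tumors of KO mice. The sensory receptor rate of untreated KO tumor 1 alone would have given 9.76 CPM. After the subtraction 7 of 18 genes differed (2727 genes in all). Without that tumor 6 did, where 2140 of all 30837 genes were higher in WT, against 5482 with it. For cytotoxic genes the medians were -0.57 and 2.18, with 8 of 17 genes (17.8% of all genes). After the subtraction 4 of the 16 tested differed, and 3 of 17 without untreated KO tumor 1. For the IFN-gamma response genes the medians were -1.03 and 0.42, with 22 of 34 genes (17.8% of all genes). After the subtraction 24 of 34 differed, and 23 without untreated KO tumor 1. In KO IgG tumors 22 of 34 were lower at an unadjusted p under 0.05 (12.7% of all genes). Ccl5 was at 7.88, 5.59 and 26.6 CPM in untreated and at 7.02, 4.93 and 8.07 CPM in IgG tumors of KO mice, and its difference between genotypes was 2.57 ± 0.66 on the log2 scale (edgeR, adjusted p = 0.217). Cd274 was at 33, 30.1 and 64.8 CPM against 17.3, 17.1 and 22.1 CPM in KO, a log2 fold change of -1.18 against -0.06 in WT. Pigment genes had medians of -0.22 in KO and -0.35 in WT, and respiratory chain genes of -0.18 and -0.24. In KO 9 of the 20 respiratory chain genes were lower at an unadjusted p under 0.05 (7.28% of genes with a mean of at least 1 CPM), against 0 in WT. By symbol, 30 of 47 Nduf, 11 of 17 Atp5 and 40 of 77 Mrpl and Mrps genes were separate and lower in KO. Their KO medians were -0.47, -0.45 and -0.33. For comparison, 59 of 94 cytosolic ribosomal, 47 of 329 Zfp and 16 of 222 Slc genes were separate and lower in KO. Fibroblast genes were above 0 in both, with medians of 1.71 in KO and 0.92 in WT.

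The genes with the smallest p for the difference were Rpl34, Dnajc15 and Ndufa7, a ribosomal protein, a mitochondrial chaperone and a complex I subunit. In WT their log2 fold changes were -0.01, 0.09 and -0.11, and in KO -1.62, -1.29 and -1.41. Rpl34 was at 82.9, 93.9 and 82.5 CPM in untreated WT tumors and at 346, 315 and 170 CPM in untreated KO tumors, while the IgG tumors of both genotypes lay between 82.3 and 93.7 CPM.

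The earlier times of the series gave no called genes either. In separate tumors of WT mice, IgG against untreated yielded 0 of 26848 genes at 6 h, day 1 and day 3 (0%, edgeR), with 948 (3.53%), 1077 (4.01%) and 366 (1.36%) higher and 508 (1.89%), 380 (1.42%) and 343 (1.28%) lower at an unadjusted p under 0.05. The T cell list had medians of 0.24, 1.49 and 0.21 at 6 h, day 1 and day 3, and the cytotoxic list of 0.46, 1.28 and 0.64. The MHC class II list had medians of -0.03, 1.33 and 0.44, with 8 of 11 genes at an unadjusted p under 0.05 and higher at day 1. Pigment genes had medians of -0.18, -0.25 and -0.15, and respiratory chain genes of -0.33, -0.27 and -0.17. The IFN-gamma response list had medians of 0.88, 1.73 and -0.15, with 25 of the 33 genes tested there at an unadjusted p under 0.05 and higher at day 1. At day 1 the median log2 fold change of the skeletal muscle list was 6.62, and the part of muscle in the day 1 values was not tested. Cd8a had log2 fold changes of 1.42, 2.14 and 1.26 and Bcas1 of -0.25, -0.24 and -0.59. The experiments were fitted separately, and the time points were not tested against day 7.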

How the data were processed

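RNA from 48 tumors was sequenced with a strand-specific kit, and 18 tumors formed the day 7 experiment. According to the submitters' processing notes and the methods, the authors trimmed reads with cutadapt 1.8.1, aligned them to mm10 with STAR 2.7.7a and quantified them with RSEM 1.3.0 on GENCODE vM21. The name of the deposited table refers to a different read counter than RSEM, and which of them made its values is not given in the sources used here. The authors deposited whole-number read counts per gene, not normalized, which were used as deposited. The 18 libraries held 11625862 to 40959309 counts.

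Genes were filtered with filterByExpr (minimum count 10), scaled by TMM and tested with the quasi-likelihood test of edgeR 4.0.16 (R 4.3.3) over 6 groups with Benjamini-Hochberg adjustment at 0.05. The difference between genotypes was an interaction contrast of that fit. Alternatives were DESeq2 1.42.0, its size factors, no filter, fewer libraries, covariates, a replicate block and each library left out; the subtraction of the sensory receptor rate and the left-out values of the separate genes were added after seeing the data. Groups are called separate where their values do not overlap. CPM were scaled by TMM, and intervals and floors (3 counts) cover counting error only. Scripts were tested on simulated data.

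Named were up to 15 genes per direction by p among separate genes with a mean of at least 1 CPM, since none passed the test, up to 5 members of each list by level, fold change and p, and genes of the study's pathways. The comparison and the lists were chosen with earlier results of these data known. Promoter windows were taken from RefSeq (GRCm38.p6), which held 15 of 22 pigment genes and 8 of 11 class II genes.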

Additional observations from a re-analysis of the deposited data

Results flagged for a closer look

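In 5 genes named for the difference between genotypes, every IgG tumor lay on one side of the untreated tumors in WT mice and on the opposite side in iNOS KO mice. The difference of the IgG effect, WT minus KO on the log2 scale, was 7.80 for Gm21738, 8.09 for Gm10800, -0.76 for Inpp5e, -0.85 for Inpp4b and -0.90 for Cmc2. Tested as an interaction in edgeR, the differences had unadjusted p-values of 0.000142, 0.000146, 0.000765, 0.00181 and 0.0019. Their adjusted p-values were 0.217, so none passed. Gm10800 was at 6163, 547 and 252 CPM in untreated and at 111, 21.4 and 153 CPM in IgG tumors of KO mice. The sensory receptor counts of these tumors, 973, 83 and 67.2 CPM and 29.4, 13.6 and 41.7 CPM, gave the same order. Gm21738 ranked these tumors alike, and the cause was not tested. For the difference, each IgG and untreated library of both genotypes was left out in turn. Without untreated KO tumor 1, 2140 genes were higher in WT at an unadjusted p under 0.05, against 5482 with it. For these 5 genes the difference with a tumor left out is not given here.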

How the results depend on the processing

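In edgeR no gene passed the test in WT tumors whichever of the 6 libraries was left out (0 to 0 genes). None passed with the replicate block (0 genes), DESeq2 size factors, the 6 libraries alone, a covariate or the subtraction. With no filter on low counts 665 passed, and 35 in DESeq2. Without the 3 libraries with most sensory receptor counts 6 passed. Those 3 lay outside this comparison: WT anti-PD-1 tumors 3 and 4 (3903 and 1374 CPM) and untreated KO tumor 1 (973 CPM). Of the 6, Bcas1 and Ifi27 were lower (edgeR, adjusted p = 0.021 and 0.037) and Gm26870, Gm21738, Gm10800 and Gm10718 higher. The common coefficient of variation was 0.786 over the 18 libraries and 0.345 in the 6 WT libraries. At an unadjusted p under 0.05, leaving out a library gave 558 to 2153 higher and 402 to 817 lower genes, with 558 without IgG tumor 3 and 591 and 727 without untreated tumors 1 and 3; 3104 were higher with no filter, and 1361 were lower without the 3 libraries and 1665 with the sensory receptor covariate. Separate genes of at least 2-fold numbered 1574 to 3884 higher and 347 to 681 lower with a library left out, where fewer tumors make separation easier. For the difference between genotypes, 0 to 3 genes passed with a library left out, 1562 with no filter and 241 in DESeq2; genes higher in WT at an unadjusted p under 0.05 numbered 2140 to 5908, 3580 in DESeq2, 3308 with the replicate block and 2727 after the subtraction, and those lower in WT 211 to 911. Same-numbered tumors did not deviate together (correlations 0.13, -0.10 and -0.08), so the numbers did not pair them, and the block gave 1300 higher and 599 lower genes. Medians changed sign without IgG tumor 3 for Fc receptors (range over the left-out libraries -0.035 to 0.98) and type I interferon-stimulated genes (-0.039 to 0.23), and without IgG tumor 1 for nitric oxide genes (-0.20 to 0.0057). With the sensory receptor covariate the log2 fold change changed sign for Cd274 (0.18), Pdcd1 (-0.24), Mki67 (0.21) and Dnajc15 (-0.13); with the muscle covariate for Nos2 (0.0065); with the block for Pdcd1 (-0.43); and for Rpl34 with DESeq2 size factors (0.0085), in DESeq2 (0.0084) and after the subtraction (0.0031). With a library left out the ranges crossed 0 for Cd274 (-0.30 to 0.15), Pdcd1 (-5.04 to 4.04), Fcgr2b (-0.25 to 0.92), Fcgr4 (-0.45 to 0.18), Fcgrt (-0.10 to 0.98), Irf1 (-0.072 to 0.41), Nos2 (-0.42 to 0.19), Mki67 (-0.24 to 0.076), Ttn (-4.28 to 1.32), Rpl34 (-0.041 to 0.058), Dnajc15 (-0.048 to 0.20) and Ndufa7 (-0.26 to 0.044). The causes were not tested. Genes with a few counts, such as Pdcd1 and Ifng, are limited by depth.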
